A study of Mus musculus with 9 samples.

Results

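Epithelial claudins are the tight junction proteins whose shared loss gives claudin-low mammary tumors their name. The genes were chosen by symbol: the rows of the count table whose Ensembl identifier maps to Cldn1, Cldn3, Cldn4, Cldn6, Cldn7, Cldn8, Cldn10, Cldn12 or Cldn23. All 9 were found among the 35275 genes of the table, and all 9 passed the filter on low counts that left 15821 genes for testing.

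Claudins are small membrane proteins that span the membrane and meet the claudins of the neighboring cell, and their strands seal the space between epithelial cells or make it selectively leaky to ions. In the mammary gland they close the luminal epithelium. Claudin-low mammary tumors are defined by low levels of CLDN3, CLDN4 and CLDN7 together with low E-cadherin and high levels of factors of the epithelial-mesenchymal transition.

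RNA of 9 mouse mammary gland tumors was sequenced, to follow gene expression under the PARP inhibitor Talazoparib (TLZ). Every mouse had the genotype Brca1Co/Co;MMTV-Cre;p53+/-, in which Cre is driven by a promoter active in mammary epithelium, so that stromal cells of the tumor are not its main target. The groups were saline, TLZ injected as the free drug (i.v. TLZ) and a liposomal form of it (NanoTLZ), with 3 tumors each. Both drug groups received 0.33 mg/kg per dose in 5 doses, 3 times a week, beginning at a tumor diameter of 4 to 5 mm; the age of each mouse at the start of treatment is not given in the sources used here. The counts summed to between 17538380 and 21194980 per tumor. Levels are given as CPM, which are counts scaled by TMM to a common library size, and where genes are compared with each other as CPM per kb of merged exons. Groups were compared by edgeR's quasi-likelihood test, and a gene is said to be called where its p, adjusted by the Benjamini-Hochberg method across the tested genes, was under 0.05. The biological coefficient of variation was 49.8%. Comparisons of the drug groups with saline share the same 3 saline tumors and are not independent of each other.

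One saline tumor stood apart from all others. Fold changes of the claudins against saline that moved most without it are given with and without it. Medians of gene lists are given in the same way, from a fit that was added for them after seeing the data. Saline tumor 3 had 1849 CPM of Krt5, a keratin of basal cells, against 2.30 to 72.9 CPM in the other 8 tumors. Its level of Snai2, a transcription factor of the epithelial-mesenchymal transition, was 67.9 CPM against 0.916 to 2.22 CPM elsewhere. Csn1s1, which encodes a casein of milk, was at 1.01 CPM there and at 1659 and 1176 CPM in saline tumors 1 and 2.

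Epcam, Cdh1, Krt8 and Krt18, used below as a measure of epithelial content, were abundant in all 9 tumors. Epcam, an epithelial adhesion protein, lay between 604 and 1368 CPM, and Cdh1, which encodes E-cadherin, between 359 and 1056 CPM. The luminal keratin Krt8 lay between 738 and 2623 CPM and its partner Krt18 between 499 and 1867 CPM. The other luminal keratins of the list were low in saline tumor 3: Krt19 was at 31.2 CPM there and at 173 to 702 CPM in the other 8 tumors, and Krt7 at 76.2 CPM and at 540.4 to 1704 CPM. The transcripts of the genotype were both counted: Brca1 lay between 9.46 and 42.7 CPM and Trp53 between 23.4 and 108 CPM, but a level over the whole gene does not show which alleles or exons it came from. Brca1 and Trp53 are outside the rule for named genes and were added after the values were seen.

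Cldn3, Cldn4 and Cldn7 made up nearly all of the claudin transcripts in every tumor. Of the 33 claudin genes in the table, 8 had 0 counts in all tumors and 15 were tested. Cldn3, Cldn4 and Cldn7 together held 89.0% of the summed claudin level per kb in saline tumor 1, the lowest share, and 96.5% in i.v. TLZ tumor 3, the highest. Ordered by the mean level per kb, Cldn4 stood at 360.3 and Cldn3 at 355 CPM per kb, with ranges that overlap. Cldn7 followed at 103 CPM per kb, and its highest tumor (138) was below the lowest tumor of Cldn4 (159) and of Cldn3 (192). Of the other 6 chosen claudins, Cldn12 came next at 11.5, Cldn23 at 8.30, Cldn8 at 7.27 and Cldn1 at 6.91 CPM per kb, whose ranges over the tumors overlap. Cldn6 at 2.09 and Cldn10 at 0.426 CPM per kb were the last of the 9, but the mean of Cldn6 rested on saline tumor 2 (17.4 CPM per kb), and in the other 8 tumors Cldn6 was at or under 0.361 CPM per kb. Among the claudins outside the 9, Cldn5 was at 8.12 and Cldn2 at 3.42 CPM per kb.

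**Figure D1:**
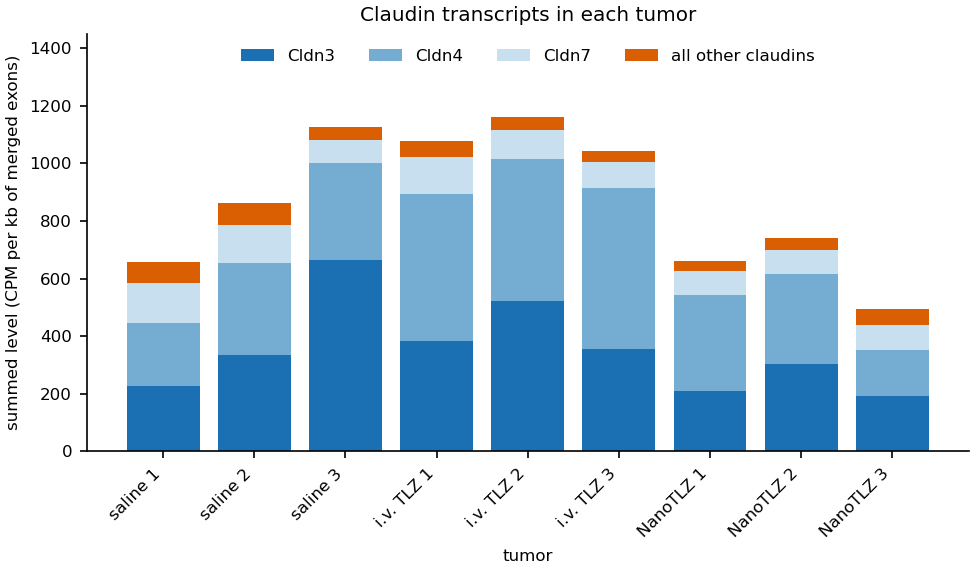
Stacked bars give the summed level of the 33 claudin genes in each of the 9 tumors in CPM per kb of merged exons, divided into Cldn3, Cldn4, Cldn7 and all other claudins. The 3 i.v. TLZ tumors sit between 1042 and 1160, the 3 NanoTLZ tumors between 493 and 740.0, and the saline tumors span 657 to 1127.

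Against all 15730 tested genes with a known length, the median percentile of the level per kb over the tumors was 99.2 for Cldn3, 99.3 for Cldn4 and 97.0 for Cldn7. No tumor had Cldn3 below percentile 98.8, Cldn4 below 98.4 or Cldn7 below 96.5. Cldn1 had a median percentile of 52.1, Cldn8 of 47.8, Cldn12 of 64.6 and Cldn23 of 55.5. Cldn6 and Cldn10 were near the bottom, at 4.37 and 9.38.

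The promoters of Cldn3, Cldn4 and Cldn7 are shown because these are the defining genes of the claudin-low state, and that of Cldn1 because it had the smallest p of the 9 claudins. Each is the stretch from 250 bases before to 50 bases after a start of the gene, from RefSeq on GRCm38.p6. A window was found for 7 of the 9 claudins, in all 11 windows, and none for Cldn8 and Cldn23. The letters CACCTG, the E-box bound by the SNAI and ZEB factors, were searched on both strands, so that CAGGTG counts too, and matches are in capitals. Cldn3 lies at chr5:134985964-134986263 on the plus strand, Cldn4 at chr5:134946885-134947184 on the minus strand, the 2 windows of Cldn7 at chr11:69964529-69964828, at the first base of the gene, and chr11:69965171-69965470, inside it, on the plus strand, and Cldn1 at chr16:26371790-26372089 on the minus strand.
Cldn3: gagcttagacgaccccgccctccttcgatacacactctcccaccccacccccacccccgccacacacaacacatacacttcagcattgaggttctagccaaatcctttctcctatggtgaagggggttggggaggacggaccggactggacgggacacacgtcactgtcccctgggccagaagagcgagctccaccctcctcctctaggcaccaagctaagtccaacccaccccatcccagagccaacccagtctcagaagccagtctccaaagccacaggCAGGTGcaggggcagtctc
Cldn4: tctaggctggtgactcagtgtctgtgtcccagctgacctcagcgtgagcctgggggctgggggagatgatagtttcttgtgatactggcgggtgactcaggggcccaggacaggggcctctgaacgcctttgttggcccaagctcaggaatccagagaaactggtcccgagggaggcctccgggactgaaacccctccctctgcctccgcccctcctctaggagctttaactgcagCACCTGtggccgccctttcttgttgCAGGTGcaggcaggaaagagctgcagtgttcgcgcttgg
Cldn7, window 1: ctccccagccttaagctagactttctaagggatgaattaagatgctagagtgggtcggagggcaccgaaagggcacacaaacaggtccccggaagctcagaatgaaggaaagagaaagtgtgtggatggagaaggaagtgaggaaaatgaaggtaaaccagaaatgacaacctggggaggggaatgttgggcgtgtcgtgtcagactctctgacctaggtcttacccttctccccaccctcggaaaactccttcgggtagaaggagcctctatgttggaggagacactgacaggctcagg
Cldn7, window 2: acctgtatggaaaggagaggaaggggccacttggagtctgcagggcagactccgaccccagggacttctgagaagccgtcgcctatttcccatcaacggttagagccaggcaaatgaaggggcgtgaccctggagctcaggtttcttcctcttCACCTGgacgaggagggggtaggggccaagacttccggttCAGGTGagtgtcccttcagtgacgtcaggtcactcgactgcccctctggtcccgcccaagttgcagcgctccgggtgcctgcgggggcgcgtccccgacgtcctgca
Cldn1: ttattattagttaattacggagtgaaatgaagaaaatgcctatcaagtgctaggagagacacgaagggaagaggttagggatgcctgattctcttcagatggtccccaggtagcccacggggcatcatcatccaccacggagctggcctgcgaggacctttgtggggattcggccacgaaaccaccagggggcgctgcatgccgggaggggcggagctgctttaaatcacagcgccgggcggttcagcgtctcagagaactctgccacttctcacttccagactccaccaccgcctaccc
Cldn3 held 1 match, Cldn4 held 2, Cldn7 held 0 in window 1 and 2 in window 2, and Cldn1 held 0. Cldn6 held 2 matches, and Cldn10 and Cldn12 held 0 in all their windows. Of 32851 promoter windows of the same length, 20.2% held the letters at least once. The letters AACNGGTT, bound by the GRHL factors, were found in 0 of the 11 windows and in 2.09% of all windows. A match is a description of the sequence and not a measured binding site.

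Cldn3 is a sealing claudin of simple epithelia and lies at chr5:134986214-134987472 (GRCm38, plus strand) in a single exon. Its level was 286, 422 and 838 CPM in saline tumors 1, 2 and 3, 481, 656 and 446 CPM in the i.v. TLZ tumors and 265, 383 and 241 CPM in the NanoTLZ tumors. Saline tumor 3, which also had the highest Snai2, was the highest of all 9. All 3 NanoTLZ tumors were below all 3 i.v. TLZ tumors, while both drug groups overlapped with saline. The means were 516 ± 288, 528 ± 112 and 296 ± 75.7 CPM (SD, n = 3). NanoTLZ differed from i.v. TLZ by a log2 fold change of -0.83 (SE 0.41, 95% interval -1.75 to 0.09), with an unadjusted p of 0.0719 in edgeR, and did not pass after adjustment. Against saline, the log2 fold change was 0.03 (SE 0.41) for i.v. TLZ and -0.80 (SE 0.41) for NanoTLZ, with adjusted p of 0.983 and 0.576. The i.v. TLZ value was 0.59 and the NanoTLZ value -0.23 without saline tumor 3. For the mean of both treatments the value was -0.38, and 0.18 without saline tumor 3. With another tumor left out, the i.v. TLZ value was below 0 in 3 fits: it became -0.24 without saline tumor 1, -0.09 without saline tumor 2 and -0.15 without i.v. TLZ tumor 2. An antisense gene, Wbscr25, named here for its position, overlaps Cldn3; the strand setting of the counting is not given in the sources used here, and Wbscr25 was at 1.29 to 4.22 CPM.

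Cldn4 lies on the same chromosome at chr5:134945119-134946934 (minus strand) and encodes a claudin that adjusts the ion selectivity of epithelia. Its level was 398, 579 and 608 CPM in the saline tumors, 930.2, 897 and 1018 CPM in the i.v. TLZ tumors and 604, 566 and 289 CPM in the NanoTLZ tumors. The 3 i.v. TLZ tumors were the 3 highest of the 9, apart from both other groups. The saline and NanoTLZ tumors overlapped, with NanoTLZ tumor 3 the lowest of all. The group means were 528 ± 114, 948 ± 62.2 and 486 ± 172 CPM (SD, n = 3). The log2 fold change of i.v. TLZ against saline was 0.84 (SE 0.35, 95% interval 0.07 to 1.62), higher in 3 of 3 tumors, with an unadjusted p of 0.0355 and an adjusted p of 0.455, and was 0.97 without saline tumor 3. NanoTLZ differed from i.v. TLZ by -0.96 (SE 0.35, 95% interval -1.74 to -0.19), with an unadjusted p of 0.0198. Neither difference passed the test after adjustment over all genes. NanoTLZ against saline was -0.12, and 0.02 without saline tumor 3 or 0.18 without NanoTLZ tumor 3.

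Cldn7 encodes a claudin that also sits along the sides of epithelial cells, in complex with EPCAM, and lies at chr11:69964779-69967885 (plus strand). Its level was 269, 262 and 158 CPM in the saline tumors, 246, 194 and 177 CPM in the i.v. TLZ tumors and 165, 163 and 175 CPM in the NanoTLZ tumors. Cldn7 varied least of the 9 claudins: its highest tumor had 1.70 times the level of its lowest. Saline tumor 3 was the lowest of all, and the NanoTLZ tumors were just below the i.v. TLZ tumors, 175 against 177 CPM at the closest. The log2 fold changes were -0.16 (SE 0.28) for i.v. TLZ and -0.45 (SE 0.28) for NanoTLZ against saline, with adjusted p of 0.870 and 0.621. NanoTLZ against i.v. TLZ was -0.29 (SE 0.28), with an unadjusted p of 0.322. Without saline tumor 3, all 6 drug-treated tumors were below the other saline tumors, i.v. TLZ was at -0.36 and NanoTLZ at -0.63, and the mean of both treatments moved from -0.30 to -0.49. With saline tumor 1 left out instead, these values were closer to 0, at -0.02, -0.29 and -0.16.

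**Figure D2:**
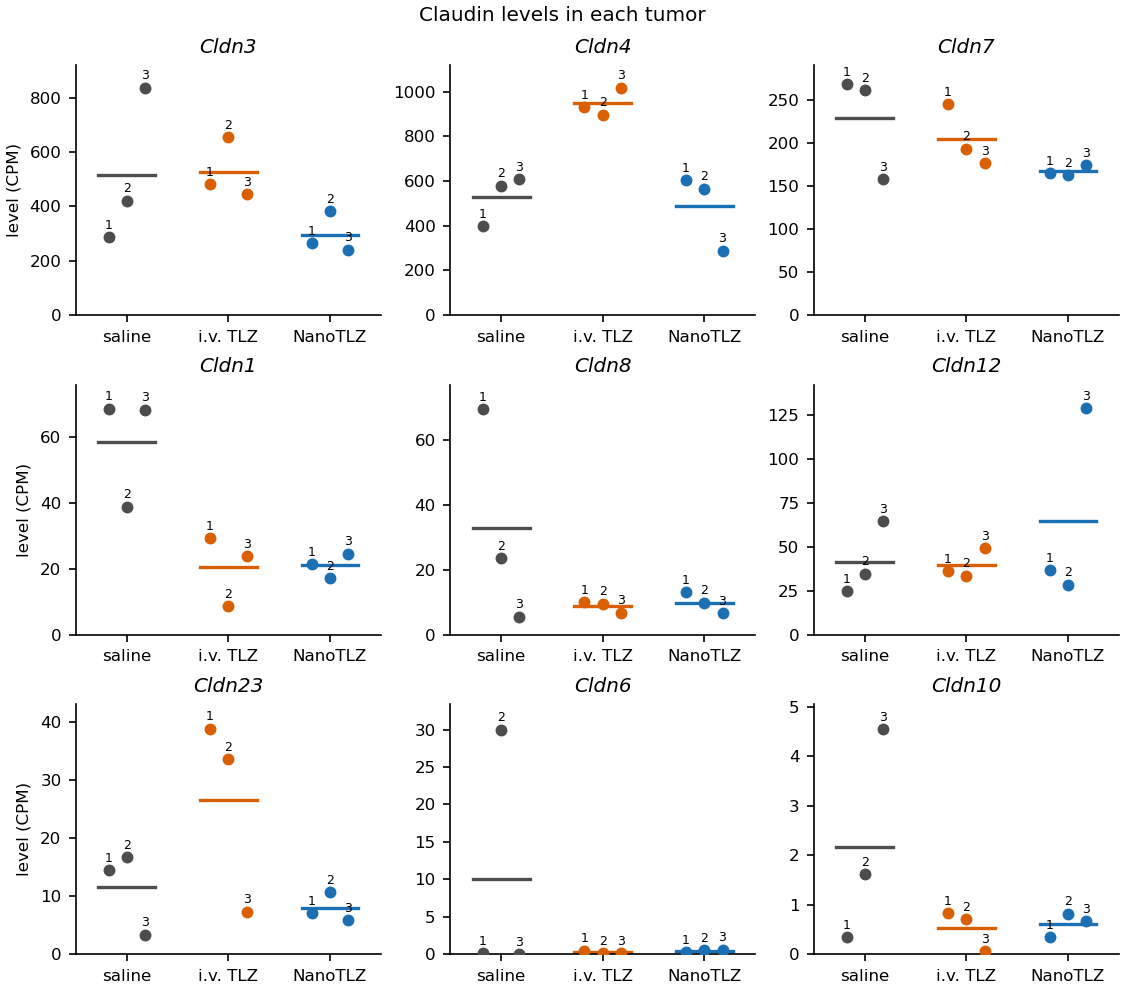
Points give the level of each of the 9 claudins in each tumor in CPM, on a linear axis that starts at 0 and differs between panels; numbers are replicate numbers and bars are group means (n = 3). Cldn1 is lower in all 6 drug-treated tumors than in the 3 saline tumors, Cldn4 is highest in the 3 i.v. TLZ tumors, and Cldn6 is high in saline tumor 2 (30.0 CPM) alone.

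Cldn1 encodes a sealing claudin that the water barrier of the skin depends on, and lies at chr16:26356642-26371841 (minus strand). Its level was 68.7, 38.9 and 68.4 CPM in the saline tumors, 29.3, 8.75 and 23.9 CPM in the i.v. TLZ tumors and 21.4, 17.2 and 24.6 CPM in the NanoTLZ tumors. All 6 drug-treated tumors were below all 3 saline tumors, with saline tumor 2 and i.v. TLZ tumor 1 the closest. The group means were 58.7 ± 17.1, 20.6 ± 10.7 and 21.1 ± 3.67 CPM (SD, n = 3). For the mean of both treatments the log2 fold change was -1.49 (SE 0.36, 95% interval -2.29 to -0.69), lower in 6 of 6 tumors, with an unadjusted p of 0.00194 and an adjusted p of 0.271, which does not pass; it was -1.35 without saline tumor 3. DESeq2 gave the same fold change an adjusted p of 0.0303, and over all the settings tried the adjusted p ran from 0.0303 to 0.487. Taken one by one, i.v. TLZ was at -1.51 (SE 0.44, adjusted p of 0.417) and NanoTLZ at -1.48 (SE 0.44, adjusted p of 0.552) against saline. The drug groups differed from each other by 0.03 (SE 0.43), and by -0.33 without i.v. TLZ tumor 2 or -0.07 without NanoTLZ tumor 3. In bulk tumors, fewer cells that express a claudin and less of its RNA per cell cannot be told apart.

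Cldn8, best known from the distal kidney tubule where it works with Cldn4, lies at chr16:88560828-88563183 (minus strand). Its level was 69.4, 23.6 and 5.51 CPM in the saline tumors, 10.1, 9.57 and 6.76 CPM in the i.v. TLZ tumors and 13.0, 9.82 and 6.52 CPM in the NanoTLZ tumors. The saline tumors spanned the whole range: saline tumor 1 was the highest and saline tumor 3 the lowest of all 9. The 6 drug-treated tumors lay close together between them. The log2 fold change for the mean of both treatments was -1.82 (SE 0.58), with an unadjusted p of 0.0108 and an adjusted p of 0.288. It rested on saline tumor 1 and was -0.63 without it, and -2.30 without saline tumor 3. Against saline, i.v. TLZ was at -1.90 and NanoTLZ at -1.74, and these were -0.72 and -0.55 without saline tumor 1 and -2.38 and -2.21 without saline tumor 3. Between the drug groups the value was 0.15, and -0.10 without NanoTLZ tumor 1.

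Cldn12, an unusual claudin that lacks the tail by which most claudins bind scaffold proteins, lies at chr5:5489537-5514958 (minus strand). Its level was 24.9, 34.7 and 64.5 CPM in the saline tumors, 36.3, 33.6 and 49.1 CPM in the i.v. TLZ tumors and 36.6, 28.5 and 129 CPM in the NanoTLZ tumors. NanoTLZ tumor 3 was far above the other 8, and saline tumor 3 was next. All groups overlapped. The log2 fold change of NanoTLZ was 0.64 (SE 0.56) against saline and 0.71 (SE 0.56) against i.v. TLZ. Without NanoTLZ tumor 3 these values were -0.31 and -0.27, and the mean of both treatments went from 0.29 to -0.18. NanoTLZ against saline was at 1.14 and the mean of both treatments at 0.78 without saline tumor 3. The value of i.v. TLZ against saline was -0.06, and 0.42 without saline tumor 3 or 0.04 without i.v. TLZ tumor 2. In the fit to all 9 tumors, no adjusted p for Cldn12 was under 0.722 in the comparisons with saline.

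Many genes within 2 Mb of Cldn12 were also high in NanoTLZ tumor 3. This was looked at after the values of Cldn12 were seen, with each gene's log2 level set against its own median over the 9 tumors. Of the 19 other tested genes with any part within 2 Mb, 17 were above their median in NanoTLZ tumor 3, against 40.9% of all tested genes, and 12 were at their highest there, against 7.42%. Their median difference was 1.37 in that tumor and 0.88 in saline tumor 3, where 16 were above their median, against 47.4% of all tested genes. Cldn12 itself was at 1.83 in NanoTLZ tumor 3. On one side of Cldn12, Mterf1b was at 2.38, Cdk6, a cell cycle kinase that starts farther away and reaches into the window, at 2.04 and Cdk14 at 1.01. Cyp51 was the lowest on that side at 0.01, barely above its median. On the other side, Gtpbp10 was at 1.47, Cfap69 and Steap2 at 0.00 and Steap1 at 0.38. The 6 neighbors within 1 Mb had a median difference of 0.68 in NanoTLZ tumor 3 and of 1.11 in saline tumor 3. Of these, 4 were above their median in NanoTLZ tumor 3 and 5 in saline tumor 3. In NanoTLZ tumor 3, 1 was at its highest. In saline tumor 3 it was 3, where 25.7% of all tested genes were at their highest. Cdk14 (0.15 in saline tumor 3, 1.01 in NanoTLZ tumor 3) and Steap1 (-0.76 and 0.38) were lower in saline tumor 3. DNA copy number was not measured, and its part in these levels was not tested.

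**Figure D3:**
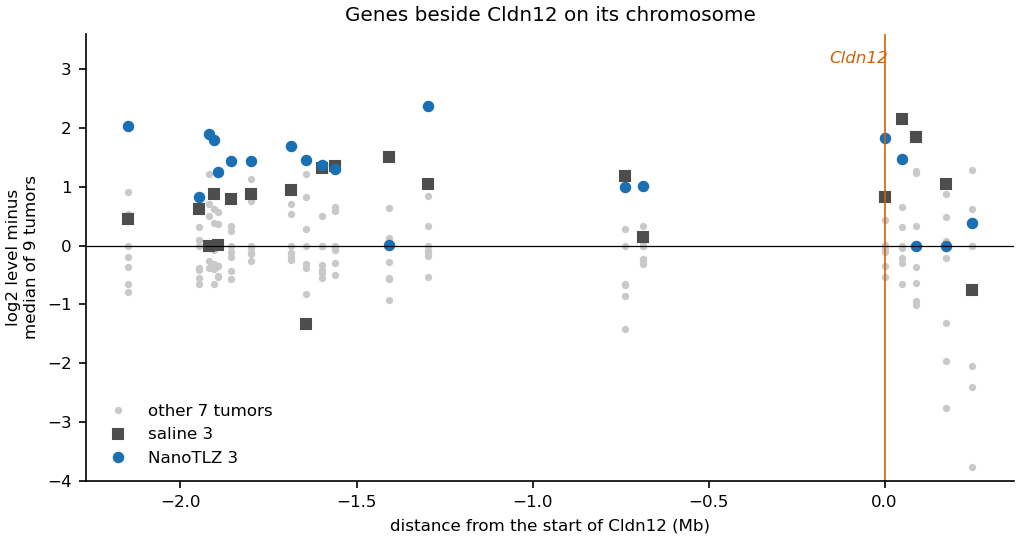
Each point is a gene near Cldn12 in 1 tumor: its distance from Cldn12 in Mb against its log2 level minus its median over the 9 tumors, with NanoTLZ tumor 3 in blue, saline tumor 3 in dark gray and the other 7 tumors in light gray. Blue points lie above 0 for 17 of the 19 neighbors and dark gray points for 16.

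The neighborhoods of the other claudins were looked at in the same way, also after the values were seen, and some of them differed from their claudin. Within 2 Mb of Cldn3, a stretch that also holds Cldn4, 32 of 53 neighbors had their highest level in saline tumor 3 and 9 their lowest, against 25.7% and 24.4% of all tested genes, with a median difference of 0.79 (0.94 within 1 Mb), and Cldn3 was at 0.99 there. Cldn4 was at 0.01 in the same tumor. Within 2 Mb of Cldn23, 10 of 16 neighbors were at their lowest in saline tumor 3 and 2 at their highest, with a median difference of -0.66 (-1.06 within 1 Mb), and Cldn23 was at -1.65. Cldn1 was about as high in saline tumor 1 (1.48) as in saline tumor 3 (1.47), while its neighbors within 2 Mb were at 0.74 and -0.30 in these tumors (1.70 and -1.39 within 1 Mb). In saline tumor 3, Cldn10 was at 2.51 and its neighbors at 0.00 in both windows. In saline tumor 2, Cldn6 was at 6.46 and its neighbors at 0.07 in both windows. In saline tumor 1, Cldn8 was at 2.81, its 13 neighbors within 2 Mb at 0.81, 7 of them at their highest against 16.6% of all tested genes, and the 3 within 1 Mb at 0.00. In the same tumor Cldn7 was at 0.60, its highest, and its neighbors within 2 Mb at -0.34.

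Cldn23, a claudin of the differentiated epithelium of the gut, lies at chr8:35824712-35826559 (minus strand). Its level was 14.5, 16.7 and 3.35 CPM in the saline tumors, 38.9, 33.6 and 7.36 CPM in the i.v. TLZ tumors and 7.08, 10.7 and 5.90 CPM in the NanoTLZ tumors. I.v. TLZ tumors 1 and 2 were the highest of all, but i.v. TLZ tumor 3 lay among the NanoTLZ tumors, so all groups overlapped. Against i.v. TLZ, NanoTLZ was at a log2 fold change of -1.75 (SE 0.70, 95% interval -3.30 to -0.21), with an unadjusted p of 0.0301, and did not pass after adjustment. Against saline, i.v. TLZ was at 1.21 (SE 0.68, adjusted p of 0.549) and NanoTLZ at -0.54 (SE 0.68, adjusted p of 0.813), and without saline tumor 3 these values were 0.78 and -0.95. The mean of both treatments was at 0.33, and at -0.08 without saline tumor 3.

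Cldn6, a claudin of embryonic epithelium and pluripotent cells, was high in 1 tumor. Saline tumor 2 had 630 counts of Cldn6 (30.0 CPM), and the other 8 tumors had between 0 and 12 counts. In 4 tumors the count was at or under 3, taken as the floor, which is 0.138 to 0.172 CPM at these depths and covers counting error only. Its level per kb in saline tumor 2 stood at percentile 80.2 of all tested genes. The fitted log2 fold change for the mean of both treatments was -4.82 (SE 1.47, adjusted p of 0.284). That value rested on saline tumor 2, without which Cldn6 was too low to be tested.

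Cldn10, which encodes a pore-forming claudin with isoforms for anions and for cations, was low in all tumors. It had 6, 34 and 99 counts in the saline tumors, 17, 13 and 1 in the i.v. TLZ tumors and 7, 15 and 13 in the NanoTLZ tumors. Saline tumor 3 was again the highest, at 4.54 CPM, and the groups overlapped. The log2 fold change for the mean of both treatments was -1.92 (SE 0.81, unadjusted p of 0.0378, adjusted p of 0.359) and was -0.78 without saline tumor 3. NanoTLZ against i.v. TLZ was at 0.19, and at -0.31 without i.v. TLZ tumor 3 or -0.06 without NanoTLZ tumor 2.

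**Figure D4:**
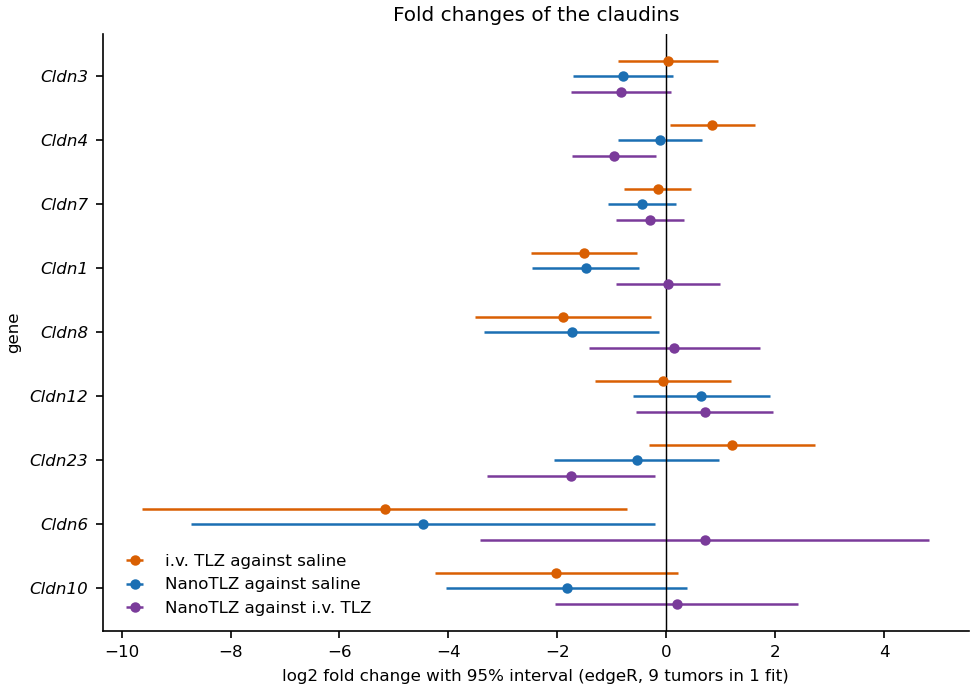
Points are log2 fold changes of the 9 claudins in 3 comparisons, and lines are 95% intervals from edgeR fitted to all 9 tumors. The intervals of Cldn1, Cldn6 and Cldn8 lie below 0 in both comparisons with saline, that of Cldn4 lies above 0 for i.v. TLZ against saline (0.84), and those of Cldn4 (-0.96) and Cldn23 (-1.75) lie below 0 for NanoTLZ against i.v. TLZ; no adjusted p of the 9 claudins was under 0.05.

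Between i.v. TLZ and saline, the question was what the free drug does, and edgeR called 0 of the 9 claudins, against 0% of the 15821 tested genes. At an unadjusted p under 0.05 it was 4 of 9 (Cldn1, Cldn4, Cldn6 and Cldn8), against 10.4% of all tested genes. The value of Cldn6 rested on saline tumor 2 and that of Cldn8 on saline tumor 1, as given above. DESeq2 called 194 genes in this comparison and 0 of the claudins, and gave Cldn6 no adjusted p in any comparison. Cldn1 was lower in all i.v. TLZ tumors than in all saline tumors, as 5.20% of all genes were, and Cldn4 was higher, as 5.99% were. Without saline tumor 3, a comparison added after seeing the data, 3 claudins were lower without overlap (Cldn1, Cldn7 and Cldn8, against 9.36% of all genes) and 2 were higher (Cldn3 and Cldn4, against 11.1%). The median log2 fold change of the 9 claudins was -0.16, with 6 below 0, beside -0.03 and 52.4% below 0 over all tested genes. It was -0.36, with 5 below 0, without saline tumor 3, beside a median of 0.05 over all genes tested in that fit.

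Between NanoTLZ and saline, the same question for the liposomal drug, edgeR called 0 of the 9 claudins, against 0.00632% of all tested genes. That share is 1 gene, the cartilage collagen gene Col2a1, named after its value was seen. The number was 3 without saline tumor 1 and 0 without saline tumor 2, i.v. TLZ tumor 3 or NanoTLZ tumor 2. At an unadjusted p under 0.05 it was 3 of 9 claudins (Cldn1, Cldn6 and Cldn8), against 8.99% of all genes, again with Cldn6 and Cldn8 resting on 1 saline tumor each, and DESeq2 called 101 genes and 0 of the claudins. Cldn1 was the 1 claudin lower in all NanoTLZ than in all saline tumors, as 8.13% of all genes were, and 0 were higher, against 7.82%. Without saline tumor 3, 4 claudins were lower without overlap (Cldn1, Cldn7, Cldn8 and Cldn23, against 14.0%) and 0 were higher (against 13.7%). The median log2 fold change of the 9 claudins was -0.80, with 8 below 0, beside -0.09 and 56.1% below 0 over all tested genes. Leaving out saline tumor 3 gave -0.67, with 7 below 0, beside 0.01 over all genes.

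Between NanoTLZ and i.v. TLZ, which compares the 2 forms of the drug at the same dose, edgeR called 0 of the 9 claudins, against 0% of all tested genes. At an unadjusted p under 0.05 it was 2 of 9 (Cldn4 and Cldn23), against 1.68%, and DESeq2 called 3 genes and 0 of the claudins. Cldn3, Cldn4 and Cldn7 were lower in all NanoTLZ tumors than in all i.v. TLZ tumors, 3 of 9 claudins against 4.41% of all genes. In the other direction it was 0 of 9, against 3.20%. Lists of cell type markers were looked at in this comparison too, and 0 of their genes were called. Of the lists that follow, 1 fibroblast gene and 0 genes of the others reached an unadjusted p under 0.05 in edgeR. The median log2 fold change was -0.57 for luminal keratins (4 of 4 below 0), 0.62 for endothelial genes (0 of 8) and 0.50 for leukocyte genes (0 of 7). It was -0.27 for epithelial adhesion genes (14 of 20), -0.14 for fibroblast genes (4 of 8) and -0.16 for basal and myoepithelial genes (4 of 8). Their part in the claudin levels was not tested. The median log2 fold change of the 9 claudins was 0.03, with 4 below 0, beside -0.04 and 54.4% below 0 over all tested genes. The sum over all 33 claudins, in the plot of summed levels, was lower in the 3 NanoTLZ than in the 3 i.v. TLZ tumors without overlap. Cldn3, Cldn4 and Cldn7 held 89.0% to 96.5% of that sum, so it is not a further result beside these 3 genes. The saline tumors, from 657 to 1127 CPM per kb, overlapped with both groups.

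Between the mean of both treatments and saline, edgeR called 0 of the 9 claudins, against 0.0190% of all tested genes. Those are 3 genes, Col2a1 (log2 fold change 4.38), the muscle myosin gene Myh4 (-9.65) and the myosin light chain gene Myl1 (-8.20), of which Col2a1 and Myl1 were named after their values were seen. Myh4 was at -7.87 without saline tumor 3. Its counts in the drug-treated tumors were 0 to 4, around the floor of 3, so its fold change is not exact. The number of called genes was 18 without saline tumor 1, 3 without saline tumor 3, 1 without NanoTLZ tumor 1 and 0 without any of the other 6 tumors. At an unadjusted p under 0.05 it was 4 of 9 claudins (Cldn1, Cldn6, Cldn8 and Cldn10), against 13.1% of all genes. The values of these claudins other than Cldn1 rested on 1 saline tumor each. DESeq2 called 273 genes, of which Cldn1 was 1. Cldn1 was the 1 claudin lower in all 6 drug-treated tumors than in all saline tumors, as 2.66% of all genes were, and 0 were higher, against 2.81%. Without saline tumor 3 it was 3 (Cldn1, Cldn7 and Cldn8, against 5.33%) and 0 (against 6.02%). The median log2 fold change of the 9 claudins was -0.38, with 6 below 0, beside -0.06 and 54.0% below 0 over all tested genes. With saline tumor 3 left out it was -0.49, with 6 below 0, beside 0.03 over all genes.

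To set each claudin against the epithelial content of its tumor, the mean log2 level of Epcam, Cdh1, Krt8 and Krt18 was subtracted. That mean was 10.56, 9.57 and 9.34 in the saline tumors, 9.45, 10.34 and 9.79 in the i.v. TLZ tumors and 9.92, 9.76 and 9.38 in the NanoTLZ tumors, without an order of the groups. Other epithelial genes were lower for the mean of both treatments than these 4. The median log2 fold change was -0.41 for epithelial adhesion genes (16 of 20 below 0) and -0.65 for epithelial regulators (16 of 16). Epcam was at -0.09, Cdh1 at -0.16, Krt8 at -0.23 and Krt18 at 0.02. The scale therefore depends on the choice of these 4 genes. On this scale Cldn1 remained lower in all drug-treated than in all saline tumors, as 0.866% of all tested genes were. The groups nearly met, with saline tumor 1 at -4.45 and i.v. TLZ tumor 1 at -4.57. I.v. TLZ tumor 2 was the lowest at -7.20. The difference of group means was -1.67 for i.v. TLZ (2.65% of all genes did not overlap and were lower) and -1.30 for NanoTLZ (1.81%). Cldn3 and Cldn4, 2 of 9 claudins against 1.13% of all tested genes, were lower in all NanoTLZ than in all i.v. TLZ tumors, with differences of -0.66 and -0.86. Cldn4 in i.v. TLZ against saline had a difference of 0.83 in the group means, but the groups now overlapped. I.v. TLZ tumor 2 was at -0.53 and saline tumors 2 and 3 at -0.39 and -0.09. Saline tumor 1 was the lowest of all 9 at -1.92, and much of the difference rested on it. Cldn7 overlapped in all comparisons on this scale. In the other direction 0 of the 9 claudins were higher without overlap, against 2.36% of all tested genes for i.v. TLZ and 6.21% for NanoTLZ against saline, 2.57% for NanoTLZ against i.v. TLZ and 1.07% for all drug-treated tumors. These differences are descriptions without a test.

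**Figure D5:**
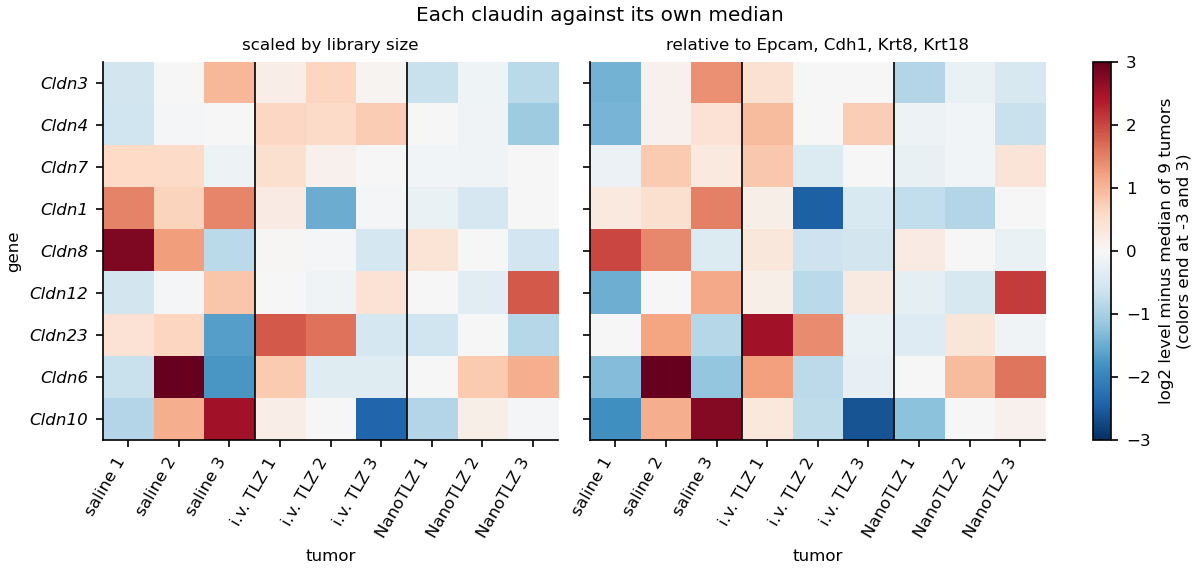
Colors give the log2 level of each claudin in each tumor minus its median over the 9 tumors, on the left scaled by library size and on the right relative to the mean of Epcam, Cdh1, Krt8 and Krt18; colors end at -3 and 3. Cldn12 stands out in NanoTLZ tumor 3 (1.83 on the left), Cldn8 in saline tumor 1 (2.81) and Cldn6 in saline tumor 2 (6.46, past the end of the scale).

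The claudins differed in which tumors were high. Of the 36 pairs among the 9 genes, 16 had a positive Pearson r of log2 CPM over the 9 tumors, and the median r was -0.01. The pair with the smallest exact permutation p was Cldn7 and Cldn8 (r = 0.763, two-sided exact permutation p of 0.0102, adjusted over the 36 pairs 0.368; Spearman rho = 0.683, exact permutation p of 0.0503, adjusted 0.424). It rested on the saline tumors, since r was 0.290 without the 2 tumors farthest from the median of Cldn7, saline tumors 1 and 2. Cldn3 and Cldn4, whose genes are neighbors, had r = 0.625 (exact permutation p of 0.0701, adjusted 0.756) and rho = 0.733 (exact permutation p of 0.0311, adjusted 0.424), with r = 0.735 without the 2 tumors farthest from the median of Cldn3. Of the 36 pairs, 0 passed at an adjusted p under 0.05. The permutations ran over all 9 tumors without regard to treatment, so that differences between the groups enter r and its p.

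For each claudin the 3 tested genes with the most similar pattern were listed by Pearson r of log2 CPM over the 9 tumors, as a description. For Cldn3 they were 9430038I01Rik (r = 0.974), Lsm4 (0.969) and Bod1 (0.965), and for Cldn4 Serpinb2 (0.924), Fgfr1op (0.920) and mt-Atp6, the last with a lower r than the other 2. For Cldn7 they were Ngp (0.969), Cdc42 (0.899) and Elmo3 (0.894), and for Cldn1 Mrpl39 (0.960), Gm16576 (0.949) and Zfp445 (0.948). For Cldn8 they were Rab27b (0.963), Esco1 (0.955) and Zfp143 (0.949, and 0.507 without saline tumors 1 and 2), and for Cldn23 Rmdn1 (0.962), Grhpr (0.961) and Celf4 (0.939). Cldn12 was most similar to Mterf1b (0.987), Rp9 (0.901) and Cdk14 (0.875, and 0.521 without saline tumor 3 and NanoTLZ tumor 3), of which Mterf1b and Cdk14 are among its neighbors described above. Cldn6 was most similar to Mycbp (0.972, and 0.452 without saline tumors 2 and 3), Ddr2 (0.934) and Stfa2 (0.930), and Cldn10 to Tmtc2 (0.969), Msto1 (0.962) and Plekha7 (0.959). Spearman's rho ran from 0.683 (Rp9) to 0.983 (Gm16576) over the listed genes other than Cdk14, where it was lower, and r without the 2 tumors farthest from the median of the claudin from 0.452 (Mycbp) to 0.987 (Bod1). The number of genes with r over 0.9 was 35 for Cldn10, 27 for Cldn3 and 26 for Cldn1, and 1 for Cldn7. That 1 gene, Ngp, had a median of 0.109 CPM, below the floor of 3 counts, and 0 CPM in its lowest tumor. Serpinb2 and Stfa2 were also at 0 CPM in their lowest tumor, with medians of 0.437 and 0.379 CPM.

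Among the other claudins, Cldn2, a pore-forming claudin of leaky epithelia, had 21.7, 23.4 and 12.0 CPM in the saline tumors, 4.90, 0 and 20.1 CPM in the i.v. TLZ tumors and 2.17, 13.9 and 4.09 CPM in the NanoTLZ tumors. The count of 0 in i.v. TLZ tumor 2 allows up to 0.164 CPM, and the groups overlapped. Cldn5, the claudin of endothelial cells, lay between 3.73 and 19.9 CPM with overlapping groups. Cldnd1, which encodes a protein named for its claudin-like domain, had 115, 72.7 and 109.7 CPM in the saline tumors, 43.0, 41.0 and 66.3 CPM in the i.v. TLZ tumors and 66.3, 51.5 and 56.9 CPM in the NanoTLZ tumors. It was below all saline tumors in 6 of 6 drug-treated tumors, as Cldn1 and 2.66% of all tested genes were, with a log2 fold change of -0.88 for the mean of both treatments (SE 0.25, unadjusted p of 0.00501, adjusted p of 0.284). Of the 7 tested genes of the list of other claudins, 3 were below 0 in that comparison with a median of 0.23, and 3 with a median of 0.07 without saline tumor 3.

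Of 29 tested genes of other tight junction proteins, the partners of the claudins, 19 were below 0 for the mean of both treatments, with a median log2 fold change of -0.07, and 0 reached an unadjusted p under 0.05, against 13.1% of all tested genes. The count was 20 of 29 and the median -0.18 without saline tumor 3, and 2 reached an unadjusted p under 0.05, against 9.27%. Occludin (Ocln), which sits in the same strands, was at -0.59 (SE 0.32, adjusted p of 0.456), lowest in saline tumor 2 at 24.6 CPM and highest in saline tumor 3 at 66.3 CPM, and at -0.31 without the latter. F11r, the junctional adhesion molecule with the highest level per kb of the list, was at 0.07 (SE 0.27), and at -0.16 without saline tumor 3. Of the 20 adhesion and surface genes of epithelium, 16 were below 0 with a median of -0.41 (13 and -0.30 without saline tumor 3), with Cdh1 at -0.16 (SE 0.35) and Epcam at -0.09 (SE 0.33), or -0.41 and -0.23 without that tumor.

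Of the 16 transcription and splicing factors of epithelial identity, all 16 were below 0 for the mean of both treatments, with a median log2 fold change of -0.65, beside 54.0% and -0.06 over all tested genes. An unadjusted p under 0.05 was reached by 7 of them, against 13.1% of all tested genes, and an adjusted p under 0.05 by 0. In the fit without saline tumor 3, 13 of the 16 were below 0 with a median of -0.57, beside 47.7% and 0.03 over all genes tested in that fit, and 5 reached an unadjusted p under 0.05, against 9.27%. Elf5, a factor of the luminal progenitor and secretory lineage, was at -1.01 (SE 0.24, unadjusted p of 0.00156, adjusted p of 0.271). Ehf, an ETS factor of epithelial cells, was at -0.93 (SE 0.22, unadjusted p of 0.00184, adjusted p of 0.271) and Grhl1 at -1.04 (SE 0.32, unadjusted p of 0.00818, adjusted p of 0.284). These 3 were the only ones of the 16 that were lower in all 6 drug-treated than in all saline tumors, against 2.66% of all tested genes. Of the 11 tested genes that are high in claudin-low tumors, 3 were below 0 with a median of 0.46 and 0 were called; without saline tumor 3 it was 2 and 0.28. Snai2 was at -3.72 (SE 1.07, adjusted p of 0.284), which rested on saline tumor 3, and at 0.75 (SE 0.50, adjusted p of 0.646) without it.

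Markers of other cell types differed between the tumors too, and their part in the claudin levels was not tested. None of the genes of these marker lists that are in the table had 0 counts in all tumors. For the mean of both treatments against saline, the median log2 fold change was 0.58 for fibroblast genes (0 of 8 below 0), 0.39 for endothelial genes (0 of 8) and 0.63 for leukocyte genes (0 of 7 tested). It was -0.10 for luminal keratins (2 of 4), -0.49 for basal and myoepithelial genes (4 of 8), 0.16 for adipocyte genes (1 of 2 tested) and 0.11 for epidermal genes (1 of 4 tested). Milk genes were at -1.53 (7 of 7 below 0) and skeletal muscle genes at -6.53 (7 of 7, with Myh4 called lower). With saline tumor 3 left out, the median of the basal and myoepithelial genes was 0.41 (1 of 8 below 0), that of the milk genes -2.09 (7 of 7) and that of the skeletal muscle genes -5.32 (7 of 7). The same fit gave 0.66 for fibroblast (1 of 8), 0.13 for endothelial (2 of 8), 0.34 for leukocyte (2 of 7), -0.31 for luminal keratin (3 of 4), 0.83 for adipocyte (0 of 2) and 0.14 for epidermal genes (1 of 4). The summed level of the epidermal genes was 30.0, 24.1 and 31.1 CPM in the saline tumors, 52.5, 42.3 and 32.0 CPM in the i.v. TLZ tumors and 24.2, 30.0 and 28.9 CPM in the NanoTLZ tumors, with Krt10 the most abundant per kb. The sum of i.v. TLZ tumor 2 held 20.6 CPM of Lor, the most of any tumor. Milk genes, with Csn3 the most abundant per kb, summed to 3190, 1743 and 7.06 CPM in the saline tumors, 264, 719 and 275 CPM in the i.v. TLZ tumors and 350.3, 287 and 611 CPM in the NanoTLZ tumors. Saline tumors 1 and 2 were the highest and saline tumor 3 the lowest in the milk sum, which is also where Cldn8 was highest and lowest. Muscle genes, with Acta1 the most abundant per kb, summed to 28.1, 191 and 697 CPM in the saline tumors and to between 3.23 and 31.6 CPM in the drug-treated tumors. Fibroblast genes, with Col1a1 the most abundant per kb, summed to 2477, 1894 and 1667 CPM in the saline tumors, 6357, 1146 and 2905 CPM in the i.v. TLZ tumors and 3763, 3095 and 2191 CPM in the NanoTLZ tumors. Leukocyte genes, with Csf1r the most abundant per kb, summed to 261, 602 and 127 CPM in the saline tumors, 586, 225 and 431 CPM in the i.v. TLZ tumors and 581, 496 and 733 CPM in the NanoTLZ tumors. Endothelial genes, led by Cdh5, summed to between 86.0 and 276 CPM, and saline tumor 3 was the lowest in both the endothelial and the leukocyte sum. Luminal keratins, led by Krt8, summed to between 1708 and 5872 CPM, basal and myoepithelial genes, led by Krt14, to between 312 and 3661 CPM, and adipocyte genes, led by Cfd, to between 5.85 and 66.5 CPM. The summed level of the 20 epithelial adhesion genes, led by Epcam, lay between 4899 and 7492 CPM, with saline tumor 1 the highest and NanoTLZ tumor 1 the lowest.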

How the data were processed

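RNA of 9 mammary tumors was sequenced, 3 per group, and each tumor is a separate replicate per the labels. The authors deposited raw counts of reads per gene without normalization. The submitters' processing notes name TopHat2, mm10 and DESeq2, while the counting program, annotation and strand setting are not given in the sources used here. Total counts ranged from 17538380 to 21194980 per tumor, and 0 pairs of columns were identical. Identifiers were matched to GENCODE M21 symbols on GRCm38 (34490 of 35275; 785 were not matched).

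Counts were scaled by TMM and filtered with filterByExpr (minimum count 10, minimum total count 15), and 15821 genes were tested with glmQLFit and glmQLFTest in edgeR 4.0.16 under R 4.3.3, with 1 coefficient per group over all 9 tumors and Benjamini-Hochberg adjustment. Intervals are at the 95% level, and like the floor of 3 counts they do not account for reads copied from 1 molecule; the floor covers counting error only. Log2 CPM used a prior count of 2. The procedure was tested on simulated data whose changes were larger than the fold changes of the claudins other than Cldn6. Some of the changed genes were not called.

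Named genes were the 9 claudins, other claudins with a mean of at least 1 CPM, and from each list the called genes, up to 4 genes with the highest level per kb and up to 3 with the smallest unadjusted p for the mean of both treatments, and the 3 genes most similar to each claudin; not all of these are printed. Lists covered other claudins, tight junction partners, epithelial adhesion, epithelial regulators, genes high in claudin-low tumors, luminal keratins, basal, fibroblast, endothelial, leukocyte, adipocyte, muscle, epidermal and milk genes. The members and lists were chosen with earlier results of these data known. Alternatives were DESeq2 1.42.0, RLE and upper quartile normalization, no filter, edgeR on the 2 groups compared, and leaving out each tumor; the count of claudins without overlap and the medians of the claudins and lists and single list genes when saline tumor 3 is left out were chosen after seeing the data. Promoter sequences are from RefSeq on GRCm38.p6.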

Additional observations from a re-analysis of the deposited data

How the results depend on the processing

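The number of genes called at an adjusted p under 0.05 depended on the tool and the filter. EdgeR called 0 genes for i.v. TLZ against saline, 1 for NanoTLZ against saline, 0 for NanoTLZ against i.v. TLZ and 3 for the mean of both treatments. DESeq2 called 194, 101, 3 and 273, and edgeR without a filter on low counts called 5, 6, 0 and 33. Fitted to the 2 groups compared, edgeR called 0 genes for NanoTLZ against saline and 0 in the other comparisons of 2 groups. RLE and upper quartile normalization left these 4 numbers as they were. With 1 tumor left out, the numbers ran from 0 to 0, 0 to 3, 0 to 0 and 0 to 18. The cause was not tested.

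Of 489 fold changes of the claudins under these alternatives, 471 kept their direction and their side of the threshold. The 17 that changed direction all came from leaving out 1 tumor and belong to 11 results, the largest of which was 0.71 in size. Over the 9 fits, Cldn3 ran from -0.24 to 0.59 and Cldn12 from -0.31 to 0.42 for i.v. TLZ against saline. For NanoTLZ against saline, Cldn4 ran from -0.30 to 0.18 and Cldn12 from -0.31 to 1.14. For NanoTLZ against i.v. TLZ, Cldn1 ran from -0.33 to 0.37, Cldn8 from -0.10 to 0.40, Cldn10 from -0.31 to 0.66 and Cldn12 from -0.27 to 1.08. For the mean of both treatments, Cldn3 ran from -0.65 to 0.18, Cldn12 from -0.18 to 0.78 and Cldn23 from -0.08 to 0.70. Cldn1 for the mean of both treatments stayed between -1.72 and -1.31, and passed the threshold with DESeq2 (adjusted p of 0.0303) but with no setting of edgeR, whose smallest adjusted p for any claudin was 0.101. Cldn6 did not pass the filter without saline tumor 2, and DESeq2 gave it no adjusted p. With saline tumor 3 left out, a fit of the gene lists added after seeing the data, the median of the basal and myoepithelial genes for the mean of both treatments went from -0.49 to 0.41 and Snai2 from -3.72 to 0.75, while the medians of the other lists kept their direction. No paired analysis was possible because the labels give no number or animal that links tumors of different groups.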
